A study of Mus musculus with 43 samples.

Results

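The genes described here are 9 markers of excitatory neurons of the mouse cortex and of the layers these neurons occupy. They were taken by symbol from the 23953 genes measured in neuronal nuclei of the visual cortex. Slc17a7 marks excitatory neurons of all layers. Cux1, Cux2 and Rorb are the 3 upper layer genes, and Fezf2, Bcl11b, Tbr1, Foxp2 and Tle4 are the 5 deep layer genes. All 9 had a row in each of the 31 neuron libraries and passed the filter on low values in both sets of mice.

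The cortex is built of layers whose excitatory neurons are born in sequence and send axons to different targets. Upper layer neurons project mainly within the cortex, while deep layer neurons project to the brainstem, spinal cord and thalamus. These identities are set by transcription factors that partly repress each other. Their expression persists in adult neurons, so they are used as layer markers. They are not confined to these neurons. In sorted microglia of this series, group means were 27.3 to 51.7 FPKM for Cux1 and 12.1 to 21.3 FPKM for Tle4.

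Nuclei were sorted with an antibody to the neuronal protein NeuN, and their nuclear RNA was sequenced as total RNA. The treated mice underwent GENUS, a visual stimulation at 40 Hz. In the CK-p25 set, GENUS-treated CK-p25 mice (n = 4 libraries) had 43 days of it and untreated CK-p25 mice had none (n = 5). Both carry a Camk2a-tTA driver and a tetO-CDK5R1/GFP responder, so that p25, an activator of the kinase Cdk5, is made in excitatory neurons after doxycycline is withdrawn, and both had 6 weeks of induction. Their controls are labelled CK and described as wild type control mice (n = 5), with no statement of whether they carry 1 of the transgenes. In the P301S set, GENUS-treated P301S mice (n = 5) had 22 days of stimulation and untreated P301S mice (n = 6) had none. Both carry a human MAPT transgene with the P301S mutation under the Prnp promoter (line PS19) and were 8 months old, and the controls are wild type mice (WT, n = 6) whose age is not stated. The transgenes in these mice act in excitatory neurons or broadly in the brain, not in 1 layer. The labels do not say that the libraries of a group came from separate animals, so the p-values measure the spread between libraries, which may be technical. Read depth is unknown.

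Markers of the sorted population were present in all groups. Camk2a, a kinase of excitatory synapses, averaged between 164 and 242 FPKM in the 6 groups (fragments mapped per kilobase of transcript, relative to the mapped total). It averaged 164 FPKM in each CK-p25 group and 191 FPKM in CK nuclei. Neither CK-p25 group overlapped CK in Camk2a, where 2.85% (untreated) and 6.29% (GENUS) of all genes did not overlap. None of 15 tested excitatory markers, Camk2a included, was called in either comparison. Gad1, which makes the inhibitory transmitter GABA, averaged 15.1 to 22.3 FPKM, since a NeuN sort takes inhibitory neurons too. Glial transcripts were present too, and some differed between CK-p25 and CK nuclei. Gfap, an astrocyte filament, averaged 28.3 ± 19.7 FPKM in GENUS CK-p25 nuclei (SD, n = 4) and 15.5 ± 2.91 in untreated CK-p25 nuclei (n = 5), against 1.96 ± 0.888 in CK nuclei (n = 5). It was called higher than in CK in both comparisons, as the 1 called of 16 tested astrocyte markers. In untreated CK-p25 against CK, 8 of the 16 lay above 0 and 8 below (median 0.03). In GENUS CK-p25 against CK, 14 lay above 0 and 2 below (median 0.52). Of 7 tested microglial markers, 3 (C1qa, C1qc and Ctss) were called higher in GENUS CK-p25 and 1 (C1qc) in untreated CK-p25 than in CK nuclei, at means of up to 3.89 FPKM. CK replicate 5 stood apart in several layer genes, with the highest Fezf2 and Bcl11b and the lowest Cux2, Rorb and Tbr1 of its group. The group differences it moves most are given with and without it.

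The median levels of the 9 genes spanned a wide range in these nuclei, and the order of neighbouring genes differed between libraries. Slc17a7, the vesicular glutamate transporter of cortical neurons, had the highest level, with a median of 121 FPKM over the 31 libraries. It lay above 97.9% of the tested genes in the CK-p25 set and above 98.2% in the P301S set. Among the upper layer genes the medians were 61.6 FPKM for Cux1, 38.3 for Cux2 and 11.1 for Rorb. Cux1 and Cux2 are homeodomain transcription factors, and Rorb is a nuclear receptor enriched in the layer that receives thalamic input. Among the deep layer genes the medians were 23.5 FPKM for Tbr1, 15.2 for Fezf2, 13.4 for Tle4, 7.35 for Foxp2 and 7.09 for Bcl11b. Foxp2 and Bcl11b were not separable by their medians, since the libraries of each ran over most of the range of the other.

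The spread between libraries differed among the genes. The highest of the 31 libraries was 1.66 times the lowest for Tle4 and 1.71 times for Cux1. The largest such ratios were 2.78 for Fezf2 and 2.42 for Foxp2. The SD of Fezf2 between libraries of a group, on the log2 scale, was 0.35 in the CK-p25 set and larger than that of 88.7% of the genes of like level there (within 0.5 on the log2 scale). In that set Tbr1, Slc17a7, Cux2 and Rorb also had a larger SD than most genes of like level, with 78.7%, 74.1%, 71.3% and 62.6% of such genes below them. These SDs include CK replicate 5, the extreme library of its group for Fezf2, Tbr1, Cux2 and Rorb, and were not computed without it. In the P301S set the SD of Fezf2 was 0.29 and larger than that of 68.9% of such genes. Bcl11b had a smaller SD than most genes of its level in both sets, with 22.0% of them below it in the CK-p25 set and 10.2% in the P301S set.

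**Figure D1:**
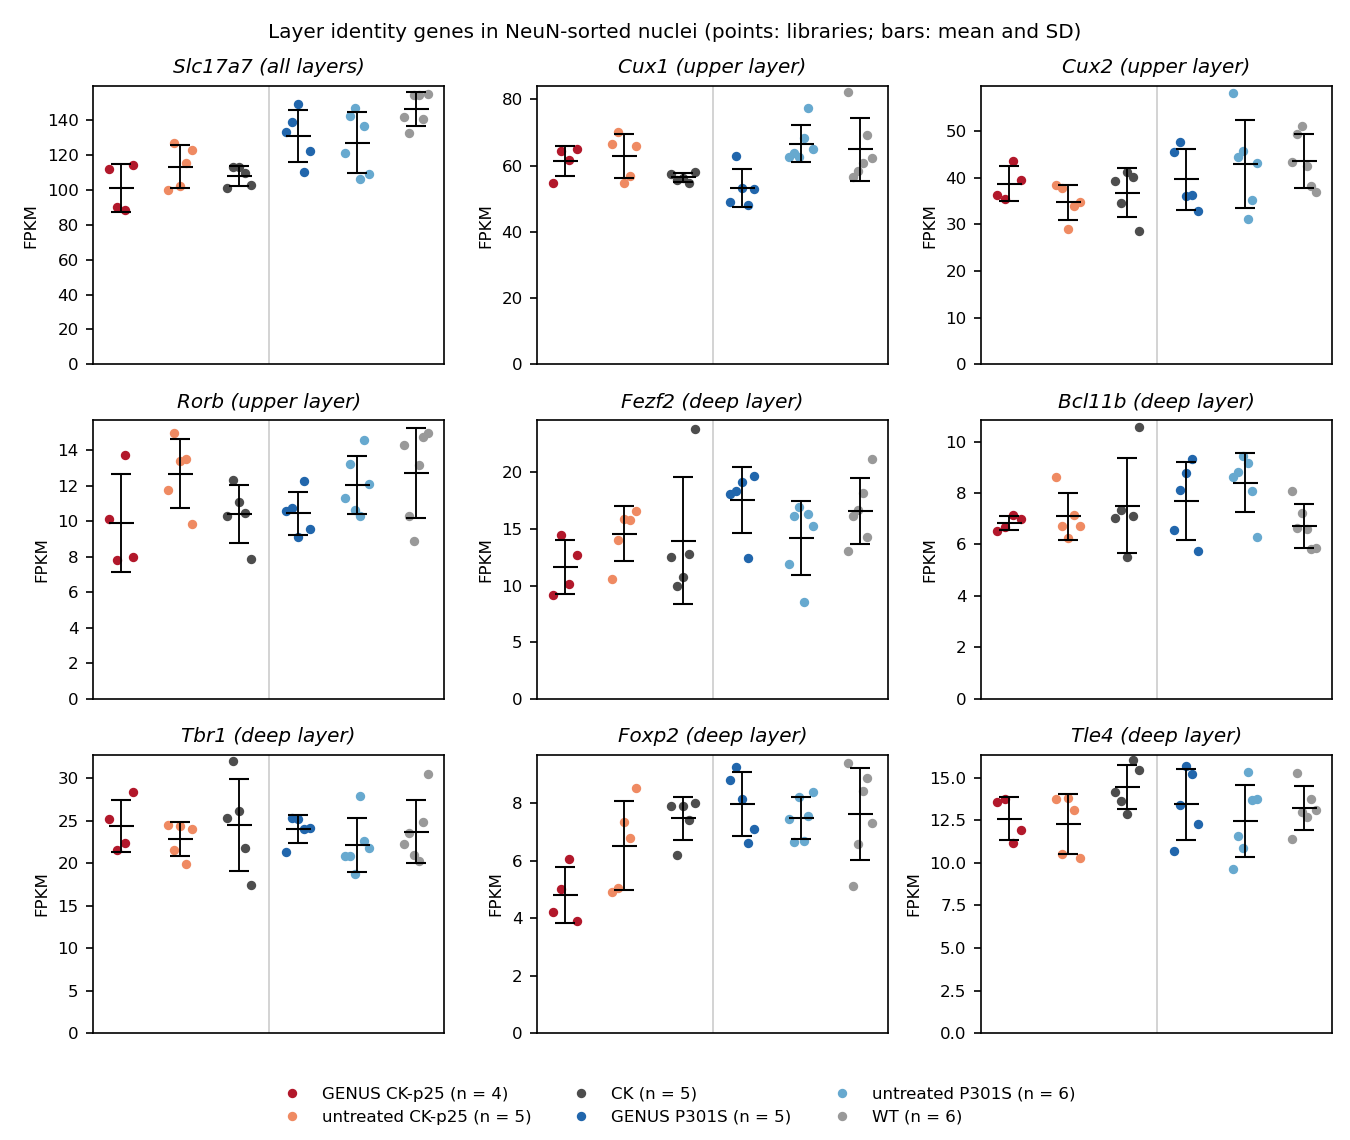
FPKM of each of the 9 genes in the 31 neuron libraries, by group, with GENUS, untreated and control groups from left to right in each set; points are libraries, and bars are the mean and SD. The groups of a set overlap for nearly every gene, while Foxp2 in GENUS CK-p25 nuclei, at 3.89 to 6.06 FPKM, lies below all 5 CK libraries.

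No layer gene passed the test in any comparison. Of 54 tests (9 genes in 6 comparisons of 2 groups), 0 had an adjusted p under the threshold of 0.05 by limma with Benjamini-Hochberg adjustment over all tested genes, and 6 had an unadjusted p under it. The estimated differences lay between -0.56 and 0.30 on the log2(FPKM + 1) scale, and their 95% intervals between -0.90 and 0.65. A p above the threshold does not show that a gene was unchanged, and differences within its interval remain possible. Groups whose libraries did not overlap were found for 1 of the 54 values. Over all genes this share was 2.85% in untreated CK-p25 against CK, 2.58% in GENUS CK-p25 against untreated CK-p25, 6.29% in GENUS CK-p25 against CK, 0.278% in untreated P301S against WT, 0.433% in GENUS P301S against untreated P301S and 0.515% in GENUS P301S against WT nuclei. The 3 comparisons of a set share their libraries and are not independent. In bulk nuclei a smaller share of cells of a type and less RNA per cell cannot be told apart.

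The comparison of untreated CK-p25 with CK nuclei asks what 6 weeks of p25 do to the layer genes of cortical neurons. Untreated CK-p25 nuclei had 0 of 9 layer genes called against CK nuclei, where 1.01% of all 12567 tested genes were called. None of the 9 had an unadjusted p under 0.05, against 11.2% of all genes. The median difference of the 9 was -0.06, beside -0.00 for all tested genes. Slc17a7 had 99.6, 127, 102, 115 and 122 FPKM in untreated CK-p25 nuclei, against 101, 113, 113, 109 and 103 FPKM in CK nuclei. These ranges overlap throughout, and the log2 difference was 0.07 (SE 0.09, limma adjusted p = 0.842).

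Among the upper layer genes in that comparison, Cux1 had 66.5, 70.2, 54.9, 57.0 and 66.0 FPKM in untreated CK-p25 nuclei, against 57.6, 55.6, 56.4, 54.7 and 58.0 FPKM in CK nuclei. The CK libraries were close together, and 3 of the 5 untreated CK-p25 libraries lay above them all (log2 difference 0.15, SE 0.07, adjusted p = 0.464). Rorb averaged 12.7 ± 1.95 FPKM in untreated CK-p25 nuclei and 10.4 ± 1.61 FPKM in CK nuclei (SD, n = 5 each), with a log2 difference of 0.26 (SE 0.16), and 0.18 without CK replicate 5. Cux2 averaged 34.7 ± 3.72 and 36.7 ± 5.26 FPKM in these groups, a difference of -0.07, and -0.16 without that library. The estimates of the 3 upper layer genes did not share a sign.

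Among the deep layer genes, Tle4, a corepressor of corticothalamic neurons, had 13.7, 10.5, 13.8, 13.1 and 10.3 FPKM in untreated CK-p25 nuclei, against 14.2, 13.6, 12.9, 16.0 and 15.4 FPKM in CK nuclei. The groups overlap, and the log2 difference was -0.22 (SE 0.10, adjusted p = 0.449), the lowest adjusted p among the 9 in that comparison. Fezf2, the zinc finger factor that specifies neurons projecting to the brainstem and spinal cord, had 10.6, 14.03, 15.9, 15.7 and 16.6 FPKM in untreated CK-p25 nuclei, against 12.5, 9.98, 10.8, 12.8 and 23.8 FPKM in CK nuclei. CK replicate 5 alone lies above all untreated CK-p25 libraries. The log2 difference was 0.11 (SE 0.20), and 0.31 without that library (adjusted p = 0.482). Bcl11b (CTIP2), which acts downstream of Fezf2, had a difference of -0.06, and 0.06 without the same library. Tbr1, a T-box factor of corticothalamic neurons, differed by -0.08, and by -0.19 without that library. Foxp2 differed by -0.19.

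The comparison of GENUS CK-p25 with untreated CK-p25 nuclei asks whether GENUS changed these genes in CK-p25 nuclei. Here 0 of 9 layer genes were called, as were 0% of all tested genes, and 1 of the 9 (Foxp2) had an unadjusted p under 0.05, against 7.42% of all genes. Rorb had 10.1, 7.79, 13.7 and 7.96 FPKM in GENUS CK-p25 nuclei, against 11.7, 14.9, 13.4, 13.5 and 9.84 FPKM in untreated CK-p25 nuclei. A pair of GENUS libraries lay below all untreated ones and 1 lay among the highest (log2 difference -0.35, SE 0.16, adjusted p = 0.675). Slc17a7 averaged 101 ± 13.7 FPKM (SD, n = 4) in GENUS CK-p25 and 113 ± 12.2 FPKM (n = 5) in untreated CK-p25 nuclei, with a log2 difference of -0.17 (SE 0.09). Fezf2 averaged 11.6 ± 2.42 and 14.6 ± 2.41 FPKM in these groups, with a log2 difference of -0.31 (SE 0.21). For the remaining genes other than Foxp2, the differences lay between -0.04 and 0.15.

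Foxp2, a forkhead transcription factor of deep corticothalamic neurons, came closest to the threshold. It had 4.21, 5.02, 6.06 and 3.89 FPKM in GENUS CK-p25 nuclei and 4.92, 5.04, 7.35, 6.79 and 8.52 FPKM in untreated CK-p25 nuclei, against 7.89, 6.21, 7.89, 7.41 and 8.01 FPKM in CK nuclei. The GENUS libraries overlap the untreated CK-p25 libraries but not the CK libraries. Against untreated CK-p25, the log2 difference was -0.37 (SE 0.16, unadjusted p = 0.0393, limma adjusted p = 0.641). Against CK it was -0.56 (SE 0.16, unadjusted p = 0.00365, adjusted p = 0.108), a ratio of 0.679 on the log2(FPKM + 1) scale. With each library scaled to its own Slc17a7 value it was -0.47, where the median of all genes lies at 0.09. These comparisons share the GENUS libraries, so they are not independent, and untreated CK-p25 nuclei had a mean between the others (6.52 ± 1.54 FPKM).

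In the comparison of GENUS CK-p25 with CK nuclei, 0 of 9 layer genes were called, where 1.46% of all genes were. Foxp2 was the 1 gene of the 9 with an unadjusted p under 0.05, against 14.4% of all genes, and the 1 whose groups did not overlap, against 6.29% of all genes. The other 8 differed by -0.20 (Fezf2) to 0.12 (Cux1). Without CK replicate 5 the values of 4 of them turned round, with 0.00055 for Fezf2, 0.02 for Bcl11b, -0.0054 for Cux2 and -0.10 for Tbr1, and Rorb was at -0.17 in place of -0.08.

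Foxp2, Bcl11b and Tle4 are also expressed by neurons of the striatum. In GENUS CK-p25 nuclei, where mean Foxp2 was lowest, the summed striatal markers lay below those of CK nuclei. Bcl11b and Tle4 differed there by -0.10 and -0.18 from CK, and by -0.04 and 0.04 from untreated CK-p25 nuclei. The summed level of 17 striatal markers was 139 to 163 FPKM in GENUS CK-p25 nuclei and 161 to 201 FPKM in untreated CK-p25 nuclei, against 184 to 213 FPKM in CK nuclei. In GENUS CK-p25 against CK nuclei, 11 of 14 tested striatal markers lay below 0, and 2 passed the test. Ppp1r1b, the dopamine-regulated phosphatase inhibitor DARPP-32, averaged 3.42 ± 0.964 FPKM in GENUS CK-p25 nuclei and 9.07 ± 2.06 FPKM in CK nuclei (log2 change -1.19, SE 0.18, adjusted p = 0.00313). Pde10a, a striatal phosphodiesterase, averaged 22.8 ± 3.13 FPKM in GENUS CK-p25 nuclei and 36.5 ± 8.15 FPKM in CK nuclei (log2 change -0.64, SE 0.14, adjusted p = 0.0345). Other striatal markers ranged from low to moderate levels. Rgs9 averaged 17.9 FPKM in GENUS CK-p25 nuclei and 24.3 in CK nuclei. Among the receptors, Drd2 averaged 0.897 FPKM in GENUS CK-p25 nuclei and 1.59 in CK nuclei, Adora2a 0.454 and 0.872, and Drd1a 3.47 and 4.50. Mean Foxp2 of untreated CK-p25 nuclei also lay below that of CK nuclei. There, 9 of 14 tested striatal markers lay below 0 against CK and 5 above (median -0.04). Pde10a (39.9 FPKM) and Rgs9 (25.9 FPKM) averaged above CK in untreated CK-p25 nuclei, and Ppp1r1b (5.96 FPKM) below. Astrocyte markers summed to 243 to 395 FPKM in GENUS CK-p25 nuclei and 192 to 247 FPKM in untreated CK-p25 nuclei, against 187 to 233 FPKM in CK nuclei. The highest of these sums was GENUS CK-p25 replicate 3, and the other 3 libraries of its group lay at 243 to 246 FPKM, within the range of untreated CK-p25 nuclei. Microglial markers summed to 26.6 to 39.5 FPKM in GENUS CK-p25 nuclei and 15.7 to 25.7 FPKM in untreated CK-p25 nuclei, against 10.5 to 15.6 FPKM in CK nuclei. The part of these other cells in the Foxp2 values was not tested.

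The P301S set asks the same questions of mutant tau. Untreated P301S nuclei had 0 of 9 layer genes called against WT nuclei, where 0.00817% of 12239 tested genes were called. Slc17a7 and Bcl11b had an unadjusted p under 0.05, 2 of the 9, against 5.64% of all genes. Slc17a7 ran from a lowest 106 through a median of 129 to a highest 147 FPKM in untreated P301S nuclei (n = 6), against 132, 148 and 155 FPKM in WT nuclei (n = 6). A total of 3 untreated P301S libraries lay below all WT libraries, and the log2 difference was -0.21 (SE 0.09, unadjusted p = 0.0324, adjusted p = 0.856). Bcl11b ran from 6.30 through 8.71 to 9.45 FPKM in untreated P301S nuclei, against 5.82, 6.63 and 8.08 FPKM in WT nuclei. The groups overlap, and the log2 difference was 0.28 (SE 0.13, unadjusted p = 0.0410, adjusted p = 0.867).

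The other 7 layer genes had estimates in that comparison between -0.23 for Fezf2 and 0.04 for Cux1. Fezf2 averaged 14.2 ± 3.26 FPKM in untreated P301S nuclei and 16.6 ± 2.89 FPKM in WT nuclei (SD, n = 6 each). Because Slc17a7 itself was lower, scaling each library to Slc17a7 moves the median of all genes up by 0.19 in this comparison, where it then lies at 0.20. Under that scaling 5 layer genes with small negative estimates (Cux2, Rorb, Tbr1, Foxp2 and Tle4) lie between 0.11 and 0.19, below that median, and no direction is given for them.

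GENUS P301S nuclei had 0 of 9 layer genes called against untreated P301S nuclei and 0 of 9 against WT nuclei. In both comparisons 0% of all genes were called. Cux1 was the 1 gene of the 9 with an unadjusted p under 0.05 in each, against 4.28% of all genes in the comparison with untreated P301S and 5.73% in that with WT. Cux1 had 49.2, 62.8, 53.4, 48.1 and 52.9 FPKM in GENUS P301S nuclei. It ran from 62.6 through a median of 64.5 to 77.4 FPKM in untreated P301S nuclei, and from 56.7 through 61.6 to 82.3 FPKM in WT nuclei. The 4 lower GENUS libraries lie below all untreated P301S and all WT libraries, and replicate 2 lies among them. The log2 difference was -0.32 against untreated P301S (SE 0.10, unadjusted p = 0.00365, adjusted p = 0.999) and -0.28 against WT (SE 0.10, unadjusted p = 0.0101, adjusted p = 0.717). The 2 values share the GENUS libraries.

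The other upper layer genes had estimates of the same sign as Cux1 in GENUS P301S nuclei. Cux2 had 45.5, 47.7, 35.99, 36.2 and 32.8 FPKM in GENUS P301S nuclei, against 31.2, 43.8 and 58.1 FPKM (lowest, median and highest) in untreated P301S and 36.9, 42.9 and 51.1 FPKM in WT nuclei. The Cux2 groups overlap almost fully, with a log2 difference of -0.10 (SE 0.14) against untreated P301S. Rorb had 10.5, 10.7, 9.09, 12.3 and 9.53 FPKM in GENUS P301S nuclei, against 10.3, 11.7 and 14.5 FPKM in untreated P301S and 8.85, 13.7 and 15.0 FPKM in WT nuclei. Rorb overlaps too, with log2 differences of -0.18 (SE 0.14) against untreated P301S and -0.25 (SE 0.14) against WT. With each library scaled to Slc17a7, the Cux2 value against WT turns to 0.03, where the median of all genes lies at 0.15.

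Among the deep layer genes, Fezf2 had the highest estimate of all 54 in GENUS P301S against untreated P301S nuclei and did not pass the test. Fezf2 had 18.1, 18.3, 19.1, 12.4 and 19.6 FPKM in GENUS P301S nuclei, against 8.58, 15.7 and 16.9 FPKM (lowest, median and highest) in untreated P301S and 13.02, 16.4 and 21.2 FPKM in WT nuclei. A total of 4 GENUS libraries lie above all untreated P301S libraries, with a log2 difference of 0.30 (SE 0.17). Against WT it was 0.07. Tbr1, Foxp2 and Tle4 differed by 0.12, 0.08 and 0.10 against untreated P301S, and Bcl11b by -0.12. Against WT the values for Tbr1, Foxp2, Tle4 and Bcl11b were 0.03, 0.07, 0.02 and 0.16.

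**Figure D2:**
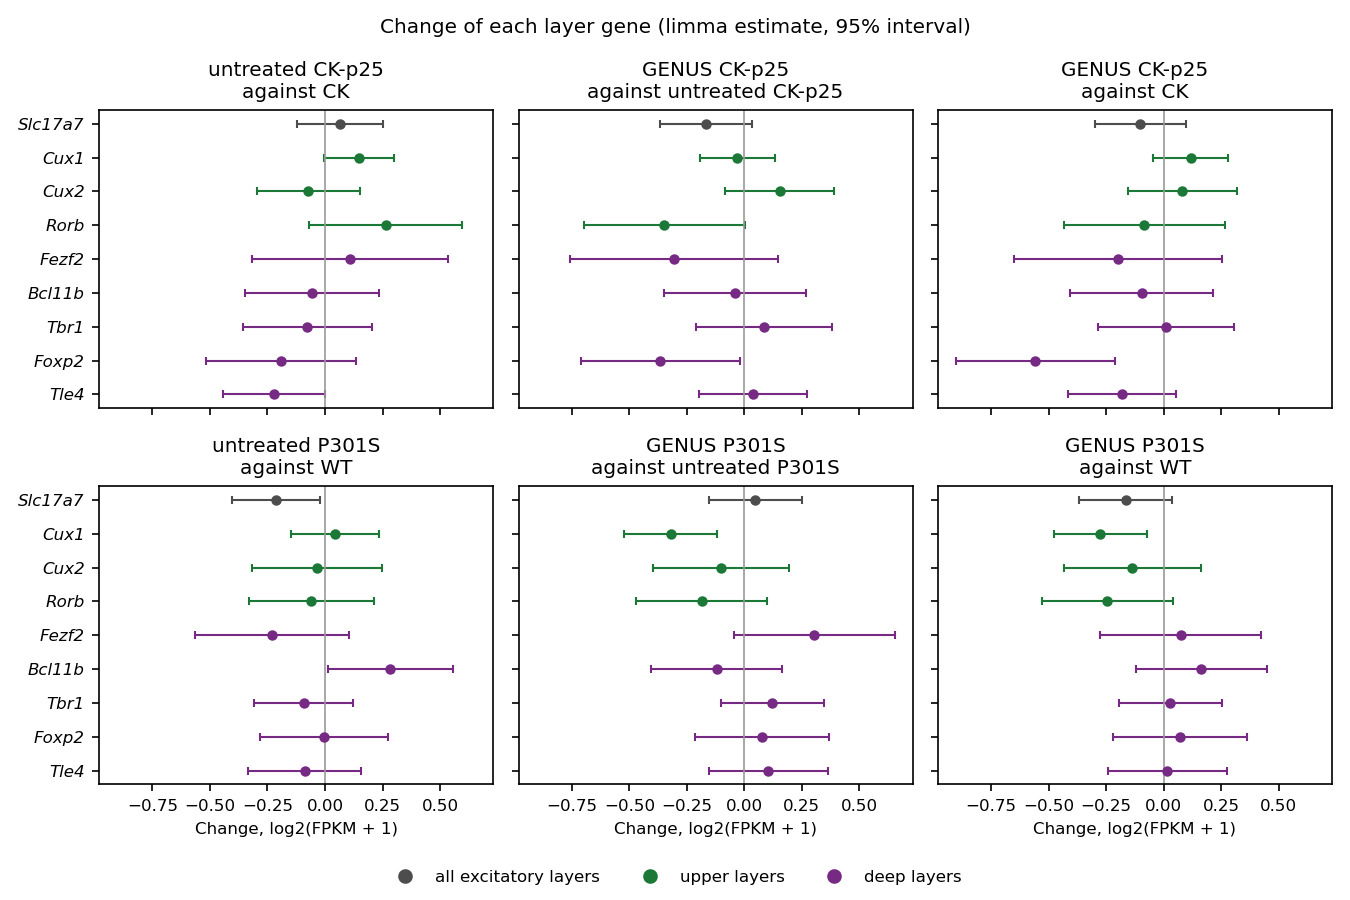
Estimated difference of each layer gene in the 6 comparisons, on the log2(FPKM + 1) scale, with 95% intervals from limma; colours mark genes of all, upper and deep layers. The intervals of 6 of the 54 values leave out 0, and all of these have adjusted p-values above 0.05.

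Whether the differences themselves depend on the model was tested with an interaction over all 31 neuron libraries. For the effect of GENUS, 0 of 9 layer genes were called and 0% of 12460 genes, and 3 of the 9 had an unadjusted p under 0.05, against 4.35% of all genes. The effect in CK-p25 minus that in P301S was 0.29 for Cux1 (SE 0.13), -0.61 for Fezf2 (SE 0.27) and -0.44 for Foxp2 (SE 0.21), each with an adjusted p of 1. For the effect of the model without stimulation, 0 of 9 were called, where 0.281% of all genes were, and Slc17a7 alone had an unadjusted p under 0.05 (0.28, SE 0.13, adjusted p = 0.684), against 6.83% of all genes. GENUS lasted 43 days in one model and 22 days in the other, so model and duration cannot be told apart.

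Outside neurons, 2 of the 9 genes, Cux1 and Tle4, passed the filter on low values in microglia sorted from the CK-p25 set (CD11b and CD45, n = 4 libraries a group). Both were called in GENUS CK-p25 against CK microglia, where 30.7% of 10394 genes were called and 30.2% did not overlap. Both were called in untreated CK-p25 against CK microglia, where the shares were 27% and 27.9%. Neither was called in GENUS CK-p25 against untreated CK-p25 microglia, where 0% of all genes were and 4.49% did not overlap.

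The balance of the layers was summarised in each library as an index. It is the mean log2(FPKM + 1) of the 3 upper layer genes minus that of the 5 deep layer genes, and it has no p-value, since the genes were chosen with results known. A scale factor common to all genes of a library nearly cancels in it. Cux1 and Tle4 were also present in microglia, and the part of other cells in the index was not tested. GENUS CK-p25 nuclei had 1.39, 1.21, 1.61 and 1.32, and untreated CK-p25 nuclei had 1.43, 1.65, 1.14, 1.29 and 1.19. CK nuclei had 1.19, 1.25, 1.35, 1.20 and 0.72. The groups overlap, and CK replicate 5 lies far below the rest of its group.

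The mean index was 1.38 ± 0.17 in GENUS CK-p25, 1.34 ± 0.20 in untreated CK-p25 and 1.14 ± 0.24 in CK nuclei (SD, n = 4, 5 and 5). The differences were 0.24 for GENUS CK-p25 against CK, 0.20 for untreated CK-p25 against CK and 0.04 for GENUS CK-p25 against untreated CK-p25. Without CK replicate 5 the values against CK were 0.14 and 0.10, and without GENUS CK-p25 replicate 3 the value against untreated CK-p25 was -0.03. The index in the CK-p25 set thus rests in large part on single libraries.

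In the P301S set the index was lower in GENUS nuclei. GENUS P301S nuclei had 1.21, 1.17, 0.85, 1.11 and 1.04. Untreated P301S nuclei ran from 1.19 through a median of 1.37 to 1.59, and WT nuclei from 1.26 through 1.34 to 1.55. All 5 GENUS libraries lie below all 6 WT libraries, and 4 of the 5 below all 6 untreated P301S libraries. How often an index of randomly drawn genes separates these groups was not computed. The means were 1.08 ± 0.14 in GENUS P301S (SD, n = 5), 1.38 ± 0.13 in untreated P301S (n = 6) and 1.37 ± 0.11 in WT nuclei (n = 6).

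The index difference was -0.30 for GENUS P301S against untreated P301S, -0.29 against WT and 0.01 for untreated P301S against WT. Leaving out 1 library at a time gave -0.34 to -0.24 against untreated P301S and -0.32 to -0.23 against WT. Leaving out Foxp2, Bcl11b and Tle4 gave -0.42 and -0.27. No gene in the index passed the test, in comparisons where 0% of all genes did. The lower index combines differences of several genes, and each of the 3 upper layer genes weighs more in it than each of the 5 deep layer genes. The largest differences were -0.32 for Cux1 and 0.30 for Fezf2 against untreated P301S, and -0.28 for Cux1 and -0.25 for Rorb against WT. Rorb was at -0.18 against untreated P301S.

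**Figure D3:**
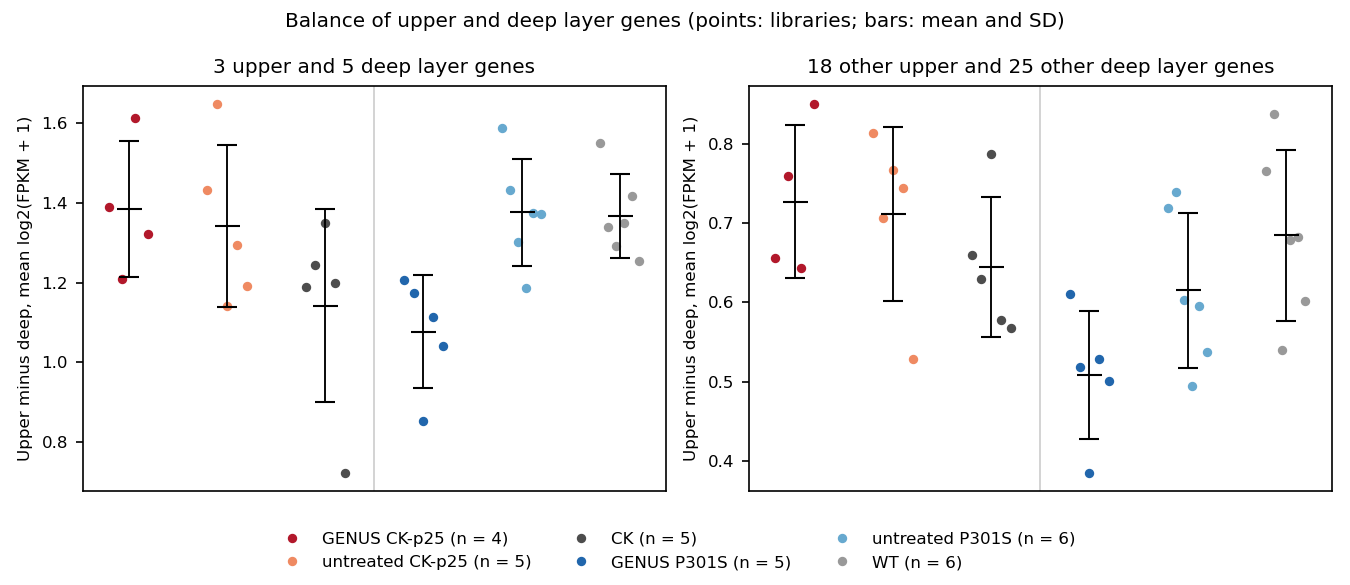
Upper minus deep layer index (difference of mean log2(FPKM + 1)) in each neuron library, for the 3 upper and 5 deep layer genes on the left and for 18 other upper and 25 other deep layer genes on the right; points are libraries, bars the mean and SD. On the left the 5 GENUS P301S libraries lie at 0.85 to 1.21, below the WT libraries, and on the right they overlap the untreated P301S and WT libraries.

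Other genes of the same layers were examined for the same pattern, from lists of 19 upper and 30 deep layer symbols, older symbols included. Of these, 18 upper layer genes were tested, and 24 deep layer genes in the CK-p25 set and 25 in the P301S set. None of either list was called in any of the 6 comparisons. In GENUS P301S against untreated P301S nuclei, 14 of the 18 upper layer genes lay below 0 (median -0.13) and 13 of the 25 deep layer genes above 0 (median 0.03), beside a median of -0.00 for all tested genes. Against WT nuclei, 17 of 18 upper layer genes lay below 0 (median -0.18) and 16 of 25 deep layer genes above 0 (median 0.08). The median of all tested genes there was 0.0015. Genes of a list were measured in the same libraries, so they are not independent and these counts were not tested. Untreated P301S nuclei had 9 of the 18 below 0 against WT nuclei (median -0.00) and 16 of the 25 deep layer genes above 0 (median 0.06), the same deep layer count as in GENUS P301S against WT nuclei. Of the upper layer genes, 11 of 18 lay below 0 in GENUS CK-p25 against untreated CK-p25 nuclei (median -0.08), as did 13 of 24 deep layer genes (median -0.07). In GENUS CK-p25 against CK nuclei, 13 of 18 upper layer genes (median -0.05) and 15 of 24 deep layer genes (median -0.06) lay below 0. In untreated CK-p25 against CK nuclei, 11 of 18 upper layer genes lay above 0 (median 0.03) and 17 of 24 deep layer genes below it (median -0.07).

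The index over these other genes was 0.509 ± 0.0807 in GENUS P301S (SD, n = 5), 0.615 ± 0.0973 in untreated P301S and 0.685 ± 0.108 in WT nuclei (n = 6 each). All 3 groups overlap. In the CK-p25 set it was 0.727 ± 0.0968 in GENUS CK-p25, 0.712 ± 0.110 in untreated CK-p25 and 0.645 ± 0.0881 in CK nuclei. This index was added after the values of the 9 genes were seen.

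**Figure D4:**
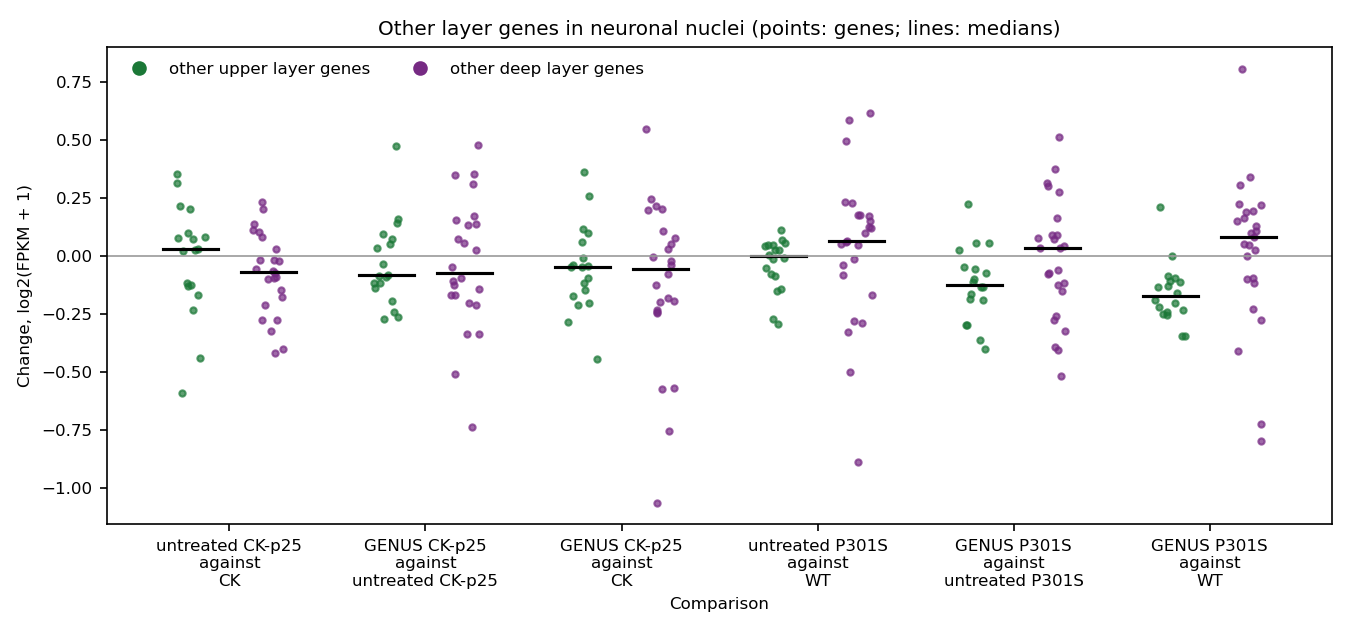
Estimated log2(FPKM + 1) difference of each other upper and deep layer gene in the 6 comparisons; points are genes and lines their medians. In GENUS P301S nuclei the medians of the upper layer genes lie at -0.13 against untreated P301S and -0.18 against WT, and those of the deep layer genes at 0.03 and 0.08.

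The other layer genes with the smallest p-values did not pass the test. In GENUS CK-p25 against CK nuclei, Nr4a2, a nuclear receptor of subplate-derived and claustral neurons, averaged 8.86 ± 1.97 FPKM in GENUS CK-p25 nuclei and 15.7 ± 3.68 FPKM in CK nuclei, a log2 difference of -0.76 (SE 0.21, adjusted p = 0.0934). Crym, a thyroid hormone binding protein of deep layer neurons, averaged 3.68 ± 2.46 FPKM in GENUS CK-p25 and 8.06 ± 2.63 FPKM in CK nuclei (log2 difference -1.06, SE 0.32, adjusted p = 0.119). The libraries of these 2 groups do not overlap for Nr4a2, against 6.29% of all genes, and overlap for Crym. The upper layer genes Otof and Plxnd1 differed by -0.44 and 0.26 in that comparison. In GENUS CK-p25 against untreated CK-p25 nuclei the smallest p-values were those of Ctgf (-0.51), Crym (-0.74), Kcnh5 (-0.20) and Inhba (0.47). In untreated CK-p25 against CK nuclei they were those of Plxnd1 (0.35), Inhba (-0.59), Nr4a2 (-0.42) and Syt6 (0.23).

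In the P301S set, Col6a1, a collagen enriched in deep layer neurons, averaged 60.3 ± 11.6 FPKM in untreated P301S nuclei and 38.7 ± 4.62 FPKM in WT nuclei. Its groups did not overlap, against 0.278% of all genes, and Col6a1 was named for its small p. The log2 difference was 0.62 (SE 0.17, limma adjusted p = 0.825). Pou3f1 differed by 0.58 there, and the upper layer genes Lamp5 and Stard8 by -0.30 and -0.27. In GENUS P301S against untreated P301S nuclei, Pvrl3, an adhesion protein of upper layer neurons, averaged 20.5 ± 4.85 and 27.0 ± 4.04 FPKM (log2 difference -0.40, SE 0.16, adjusted p = 0.999). Rasgrf2, an upper layer exchange factor, differed by -0.30, and the deep layer genes Parm1 and Rprm by 0.30 and -0.52. Against WT nuclei the smallest p-values were those of Tcerg1l (0.81), Rprm (-0.80), Pvrl3 (-0.35) and Stard8 (-0.35). Tcerg1l and Rprm are both deep layer genes with estimates of opposite sign.

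Co-variation of the 9 genes was examined over the 31 neuron libraries as deviations from group means on the log2 scale. Of 36 pairs, 0 had an adjusted permutation p under 0.05. The strongest was Cux2 with Tle4, an upper with a deep layer gene, at a Pearson r of -0.53 (permutation p = 0.0095, adjusted p = 0.342) and a Spearman rho of -0.42 (permutation p = 0.0392, adjusted p = 0.768). Leaving out the 2 libraries farthest from the median of Cux2 gave r = -0.35. Within the CK-p25 set r was -0.45 and within the P301S set -0.57.

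Fezf2 with Tbr1, which repress each other in developing deep layer neurons, had r = -0.48 (permutation p = 0.0334, adjusted p = 0.601) and rho = -0.30 (permutation p = 0.128, adjusted p = 0.768), and r = -0.18 without the 2 farthest libraries. That relation rests on those libraries, and r was -0.69 within the CK-p25 set and -0.22 within the P301S set. The median r was -0.09 over the 10 pairs of deep layer genes, -0.02 over the 3 pairs of upper layer genes and -0.05 over the 15 mixed pairs. Genes of a layer class did not vary together more than genes of different classes by these values, which were not tested against each other.

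**Figure D5:**
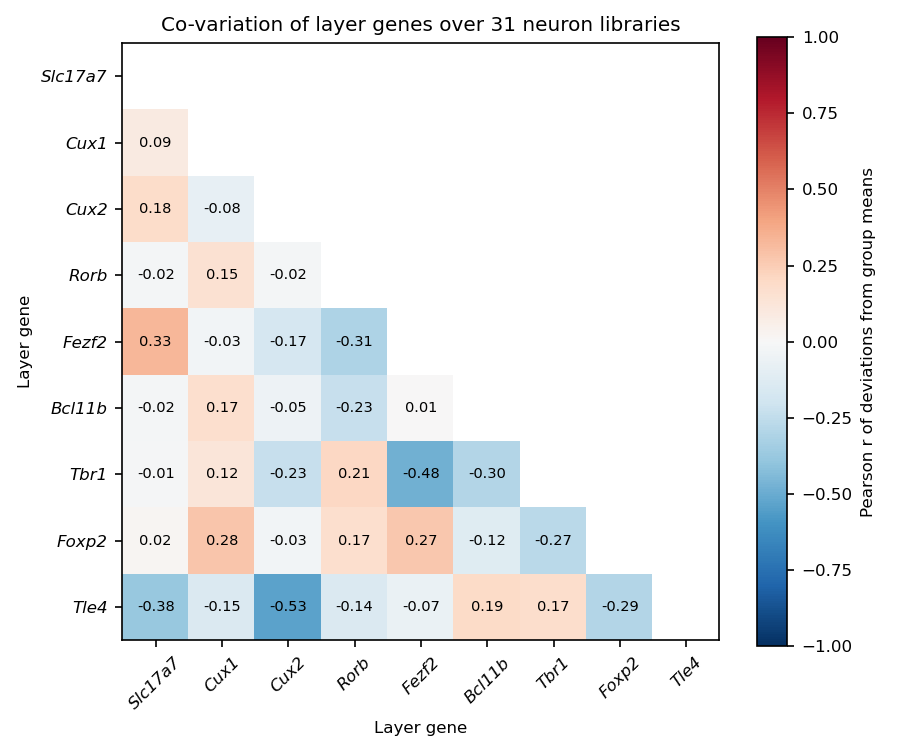
Pearson r of the deviations from group means, log2(FPKM + 1), for the 36 pairs of layer genes over 31 neuron libraries; red is positive and blue negative. The values run from -0.53 for Cux2 with Tle4 to 0.33 for Slc17a7 with Fezf2, and no pair passed the permutation test after adjustment.

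The genes whose deviations were most like those of each layer gene are given as a description, over the same 31 libraries and 11317 tested genes. For Cux2 these were Sobp (r = 0.79, rho = 0.79), Dennd1a (r = 0.79, rho = 0.84) and Miat (r = 0.78, rho = 0.78). For Fezf2 they were Slc39a7 (r = 0.79), Pigs (0.69) and Entpd6 (0.65). For Slc17a7 they were Itm2c (r = 0.78), Reep1 (0.69) and Nlgn2 (0.68), and for Bcl11b R3hdm2 (r = 0.75), Cdc42bpa (0.74) and Myh9 (0.69). Rorb was most like N6amt2 (r = 0.73), Gtf3c4 (0.65) and Ppp1r1b (0.64), and Cux1 most like Lin9 (0.68), Pemt (0.65) and Taf15 (0.64). Tbr1 was most like Ubb (r = 0.68), Zfyve9 and Fbxo32 (0.63 each), Foxp2 like Klf10 (0.69) and Nudt9 (0.67), and Tle4 like Llph (0.69), Epb4.1 (0.67) and Rnf152 (0.65). None of these likest genes was itself one of the 9. The libraries share their preparation and unknown depth, and the highest of 11317 correlations is large by selection.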

How the data were processed

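Neuronal nuclei (NeuN sort, the SMARTer stranded pico-input kit for total RNA) and microglia (CD11b and CD45 sort, SMART-Seq v4) were sequenced, per the labels' protocols. The authors deposited FPKM values, 1 file per library. The submitters' processing notes name STAR, Cufflinks 2.0.0 and the mouse build mm9, without saying what each did. Annotation, filters and depth are not given, so no counting interval is given, and no coordinates are given because the reference at hand has another build.

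The 9 genes and all gene lists were chosen with earlier results of these data known. Groups came from the labels. Genes with a mean of at least 1 FPKM over a set were kept, transformed to log2(FPKM + 1), which understates changes of low genes, and fitted with limma 3.58.1 in R 4.3.3 (3 groups sharing 1 spread, mean-variance trend, two-sided, Benjamini-Hochberg, threshold 0.05). The interaction used all 31 neuron libraries. Pair correlations were permuted within groups (100000 permutations, Python 3.11.15, numpy 2.4.6). The fit was tested on simulated data with known log2 changes in randomly drawn genes. By comparison, it called 22.5% to 36.8% of changes of 0.5 and 62.1% to 79.4% of changes of 1. Besides the 9 genes, named genes are marker list genes past the threshold, otherwise the 2 of each layer list with the smallest p, and the 3 likest genes of each layer gene, of which 1 is not reported here. Gfap, C1qa, C1qc and Ctss, markers of astrocytes and microglia, were the other list genes past the threshold. Alternatives were other pseudocounts, filters, scalings, spread estimates, a replicate block and leaving out each library.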

Additional observations from a re-analysis of the deposited data

Results flagged for a closer look

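A total of 3 values of the layer genes lay apart from the rest of their group. Fezf2 in CK replicate 5 was at 23.8 FPKM, with the next library of its group at 12.8 FPKM. The upper minus deep layer index of the same library was 0.723, with the next at 1.19. Fezf2 in GENUS P301S replicate 4 was at 12.4 FPKM, with the next at 18.1 FPKM, and the log2 difference from untreated P301S nuclei without it was 0.42. A total of 60 groups of values were examined, and chance marks about 1 in 20 such groups.

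Cux1 and Tle4 were also present in the sorted microglia of the CK-p25 set, outside the comparisons of neurons, while the other 7 layer genes averaged at most 1.54 FPKM in any microglia group. Cux1 had 44.0, 55.7, 47.3 and 36.2 FPKM in GENUS CK-p25 microglia and 61.5, 54.3, 42.5 and 48.7 FPKM in untreated CK-p25 microglia, against 29.7, 34.1, 24.3 and 21.2 FPKM in CK microglia. Both CK-p25 groups lie above all CK libraries, where 30.2% (GENUS) and 27.9% (untreated) of all genes did not overlap. Against CK microglia, Cux1 rose by 0.73 on the log2 scale in GENUS CK-p25 (SE 0.16, limma adjusted p = 0.00381) and by 0.91 in untreated CK-p25 microglia (SE 0.16, adjusted p = 0.000917).

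Tle4 had 21.4, 19.3, 15.0 and 17.3 FPKM in GENUS CK-p25 microglia and 15.1, 24.0, 19.3 and 26.9 FPKM in untreated CK-p25 microglia, against 11.01, 11.3, 13.5 and 12.8 FPKM in CK microglia. Against CK microglia, it rose by 0.54 in GENUS CK-p25 (SE 0.16, adjusted p = 0.0217) and by 0.74 in untreated CK-p25 microglia (SE 0.16, adjusted p = 0.0039). In these comparisons 30.7% and 27% of 10394 tested genes were called. In GENUS CK-p25 against untreated CK-p25 microglia the values were -0.18 for Cux1 and -0.20 for Tle4, and neither was called (adjusted p = 0.892 and 0.864), where 0% of all genes were.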

How the results depend on the processing

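Of 1540 alternative values of the layer genes in the neuron comparisons and in the differences between models, 1476 kept their sign, 64 turned round and 0 crossed the threshold, with a lowest adjusted p of 0.103. Scaling each library to Slc17a7 divides all genes of a library by 1 factor and so moves them together. It moved the median of all genes to 0.15 in GENUS CK-p25 against untreated CK-p25, 0.09 in GENUS CK-p25 against CK, 0.20 in untreated P301S against WT and 0.15 in GENUS P301S against WT, and all layer genes that turned round in these comparisons still lay below it. It gave 0.13 for Cux1 and 0.11 for Bcl11b in GENUS CK-p25 against untreated CK-p25, and 0.011 for Rorb against CK. In untreated P301S against WT it gave 0.17 for Cux2, 0.14 for Rorb, 0.11 for Tbr1, 0.19 for Foxp2 and 0.11 for Tle4, and in GENUS P301S against WT 0.026 for Cux2. In the difference between models it gave -0.17 for Cux1 and -0.25 for Tbr1 (effect of the model), and 0.031 for Rorb, 0.17 for Tbr1 and 0.14 for Tle4 (effect of GENUS). The replicate number as a block gave 0.0099 for Bcl11b in GENUS CK-p25 against untreated CK-p25 and -0.037 for Tbr1 in GENUS CK-p25 against CK, and called 0 of the 9 genes. The cause was not tested for the differences between models or the block. Deviations of same-numbered libraries correlated at -0.10 to 0.11, not over 0.1 in every pair of any comparison, and these libraries were not treated as pairs. In the P301S set the correlations were 0.032 to 0.074 for GENUS with untreated P301S and 0.025 to 0.106 for GENUS P301S with WT. Those of untreated P301S with WT were -0.052 to 0.103. Whether same-numbered libraries share a preparation was not tested.

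Leaving out 1 library at a time, the following values spanned 0. In untreated CK-p25 against CK they were Bcl11b (-0.15 to 0.061) and Tbr1 (-0.19 to 0.023). In GENUS CK-p25 against untreated CK-p25 they were Cux1 (-0.078 to 0.022), Bcl11b (-0.079 to 0.023) and Tle4 (-0.019 to 0.091). In GENUS CK-p25 against CK they were Cux2 (-0.0054 to 0.12), Rorb (-0.24 to 0.0083), Fezf2 (-0.30 to 0.00055), Bcl11b (-0.19 to 0.020) and Tbr1 (-0.10 to 0.11). In untreated P301S against WT they were Cux2 (-0.13 to 0.049) and Foxp2 (-0.098 to 0.055), and in GENUS P301S against untreated P301S Slc17a7 (-0.0026 to 0.11). In GENUS P301S against WT they were Tbr1 (-0.012 to 0.10), Foxp2 (-0.022 to 0.13) and Tle4 (-0.040 to 0.089). In the difference between models they were Cux2 (-0.12 to 0.054) and Tbr1 (-0.094 to 0.12) for the model, and Bcl11b (-0.0082 to 0.15) and Tbr1 (-0.11 to 0.017) for GENUS.

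The index of untreated P301S against WT was 0.14 without Foxp2, Bcl11b and Tle4. A total of 7 gene pairs were called after scaling to Slc17a7, which puts 1 divisor in every gene. Counts over all genes moved more. The 127 genes called in untreated CK-p25 against CK became 57 with a minimum mean of 5 FPKM, 76 with Slc17a7 scaling, 71 with 2 groups in the fit and 72 with the replicate block. The 183 called in GENUS CK-p25 against CK became 109 with that minimum, 85 with 2 groups and 84 with the block. The 35 of the model difference became 15 with a pseudocount of 0.1, 67 with no minimum, 6 with the minimum of 5 and 19 with Slc17a7 scaling. Leaving out 1 library at a time gave 77 to 149, 92 to 166 and 21 to 42 for these 3 counts. The remaining such counts stayed between 0 and 2. Group sizes of 4 to 6 and unknown depth limit what can be detected.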
